A study of Mus musculus with 20 samples.

Results

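Retinoid synthesis, binding and breakdown in the preimplantation uterus was described with 9 genes, Stra6, Rdh10, Dhrs3, Aldh1a1, Aldh1a2, Aldh1a3, Crabp2, Cyp26a1 and Cyp26b1. They were found by gene symbol among 45777 genes of a table of TPM, the share of each library that a transcript makes up after division by its length, so that levels can be compared between genes. All 9 were listed and 8 of them were above 0 TPM in all 20 libraries and could be tested, whereas Crabp2 was listed at 0 in 7 libraries.

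The uteri came from mated B6D2F1 females of 8 to 12 weeks of age, 5 mice in each of 4 groups, and 1 library of polyadenylated RNA was made from a uterine horn collected at 18:00 on day 3.5 of pregnancy, just before implantation. Control mice were untreated. Mice of the implantation failure (IF) group received 3 mg/kg of RU486 (mifepristone) under the skin on day 3.5. RU486 is an antagonist of both the progesterone and the glucocorticoid receptor. Mice of the PBMC group received the same RU486 and, on day 1.5, 50000 peripheral blood mononuclear cells in each horn, taken from other, non-pregnant mice and kept in culture beforehand. The PBMC-hCG group differed from the PBMC group in that these cells had been cultured with 5 IU/mL of human chorionic gonadotropin (hCG), a luteotropic hormone of early human pregnancy. The 3 RU486 groups share the antagonist, and neither the control nor the IF mice had an intrauterine injection, so that the injection and the injected cells cannot be told apart in comparisons of the PBMC groups with the IF or control group.

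Retinoic acid is made inside cells from vitamin A. Retinol enters through the receptor STRA6, is oxidised to retinaldehyde by RDH10 and, in an irreversible step, to retinoic acid by the ALDH1A enzymes, while DHRS3 reduces retinaldehyde back to retinol. CRABP2 carries retinoic acid to the nuclear receptors, and the CYP26 enzymes of the cytochrome P450 family break retinoic acid down. In the pregnant uterus Cyp26a1 is known as a gene of the luminal epithelium and Aldh1a2 as a gene of the stroma.

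In these uteri, RU486 was accompanied by higher transcript levels of some genes at the last steps of the pathway. The retinoic acid-forming genes Aldh1a2 and Aldh1a3 and the retinoic acid-degrading genes Cyp26a1 and Cyp26b1 rose in the IF group. Aldh1a1, of the same step as Aldh1a2 and Aldh1a3, was not called, and the call of Cyp26b1 was lost in 9 of the alternative fits. In the PBMC-hCG group Aldh1a2 lay near the control level and Rdh10 below it, whereas Cyp26a1, Cyp26b1, Aldh1a3 and Dhrs3 were above the control level.

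The promoter of Cyp26a1 is shown because it carries a repeat of the type that retinoic acid receptors bind, and those of its paralog Cyp26b1 and of Aldh1a2, which also rose in the IF group, are shown beside it. The windows, from RefSeq on GRCm38.p6, run from 250 bases before to 50 bases after a start site, and such windows were found for 6 of the 9 genes, none for Rdh10, Aldh1a3 or Crabp2. Capitals mark the hexamer AGGTCA with its variants, the hexamer AGTTCA, the hexamer GGGTCA and the hexamer GGTTCA, on either strand, and the hexamer AGAACA of steroid receptors on either strand.
Cyp26a1, chr19:37697558-37697857, plus strand: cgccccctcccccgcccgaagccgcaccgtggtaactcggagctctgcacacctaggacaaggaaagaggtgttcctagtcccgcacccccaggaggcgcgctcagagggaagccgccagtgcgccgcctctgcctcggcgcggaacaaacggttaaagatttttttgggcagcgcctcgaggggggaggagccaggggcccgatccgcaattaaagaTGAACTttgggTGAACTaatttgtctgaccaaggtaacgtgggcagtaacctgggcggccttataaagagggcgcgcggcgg
Cyp26b1, chr6:84593761-84594060, minus strand: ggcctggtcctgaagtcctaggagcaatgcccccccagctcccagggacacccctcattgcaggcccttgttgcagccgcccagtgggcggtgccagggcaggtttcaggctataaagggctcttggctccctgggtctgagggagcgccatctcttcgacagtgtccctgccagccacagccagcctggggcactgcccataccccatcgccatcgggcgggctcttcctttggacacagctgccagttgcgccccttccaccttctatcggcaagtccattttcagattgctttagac
Aldh1a2, chr9:71215539-71215838, plus strand: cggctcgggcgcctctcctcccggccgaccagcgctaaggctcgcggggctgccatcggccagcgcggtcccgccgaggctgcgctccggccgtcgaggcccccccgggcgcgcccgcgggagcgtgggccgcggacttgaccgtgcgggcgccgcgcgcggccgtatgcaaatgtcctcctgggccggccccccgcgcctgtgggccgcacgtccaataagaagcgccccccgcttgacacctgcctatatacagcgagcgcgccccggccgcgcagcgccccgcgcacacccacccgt
The Cyp26a1 window holds 2 hexamers in the same orientation, 5 bases apart, read on the minus strand. This direct repeat begins 32 bases before the start site of this window. That site lies downstream of the annotated start of the gene (37697738), and the repeat lies inside the annotated gene. Any direct repeat of these hexamers with 5 bases between them was found in 32 of 32851 windows of the same length, or 0.0974%, while a single hexamer was found in 43.7% and is therefore common. No marked hexamer was found in the Cyp26b1 or Aldh1a2 window shown. Direct repeats with spacings of 1 and 2 bases (0.222% and 0.268% of windows), the full steroid receptor element, AGNACA with its inverted copy 3 bases on (0.0639%), and the estrogen receptor element, GGTCA with its inverted copy 3 bases on (0.07%), which can overlap AGGTCA, were found in no window of the 9 genes. The hexamer AGAACA, found in 19.0% of windows, occurred in windows of Dhrs3 and Stra6. These matches describe letters in the window and not binding.

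Levels per length spanned a wide range. Over the 20 mice the mean was 226 TPM for Cyp26a1, 125 TPM for Aldh1a2, 56.8 TPM for Rdh10, 48.3 TPM for Stra6 and 43.5 TPM for Dhrs3. Aldh1a1 averaged 11.9 TPM, Cyp26b1 4.58 TPM and Aldh1a3 3.07 TPM. Cyp26a1 was above Aldh1a2 in 18 of 20 mice and Aldh1a2 above Rdh10 in 20 of 20, while Rdh10 and Stra6 (12 of 20), Stra6 and Dhrs3 (11 of 20) and Cyp26b1 and Aldh1a3 (13 of 20) were not ordered the same way from mouse to mouse. The order holds among these 9 genes only. The alcohol dehydrogenase gene Adh1, which can oxidise retinol, averaged 143 TPM, above Aldh1a2.

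**Figure D1:**
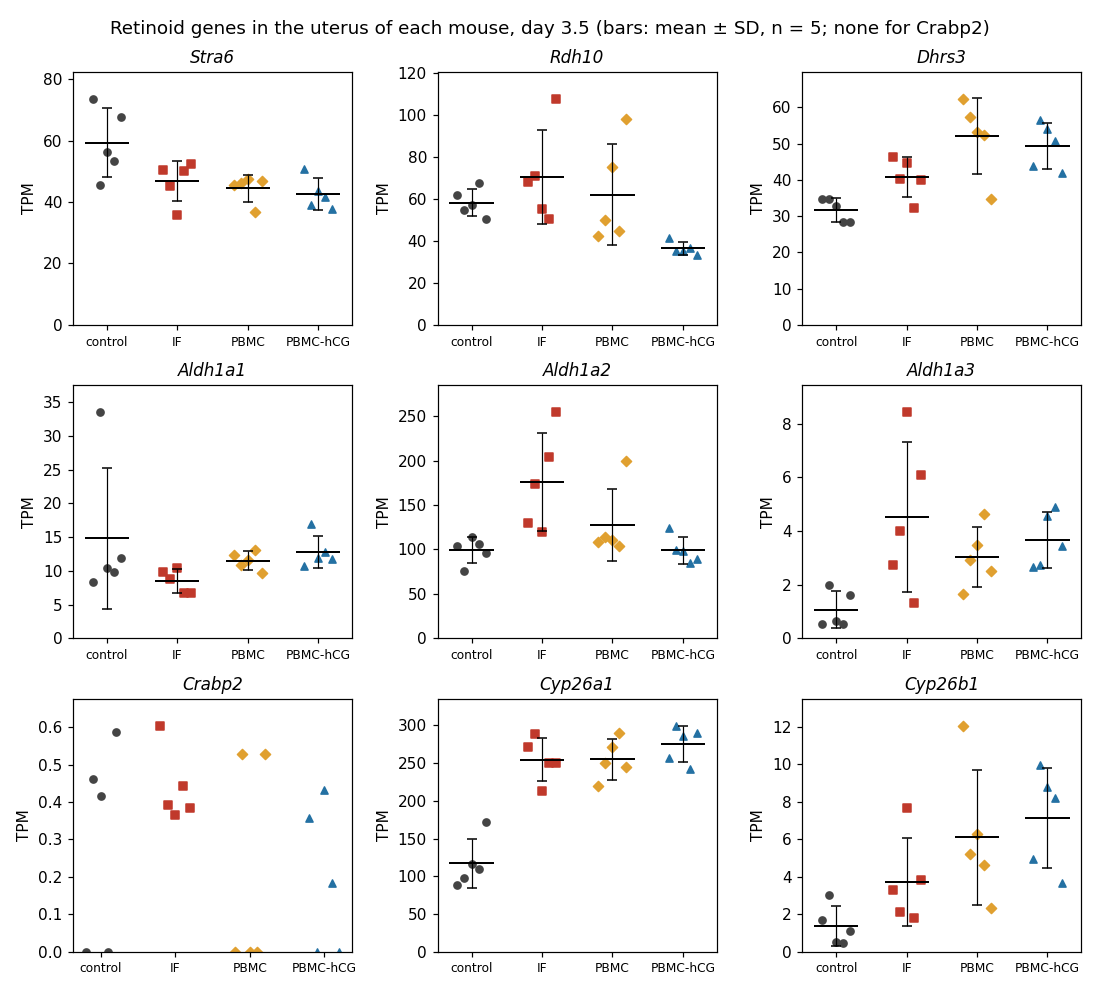
TPM of each retinoid gene (vertical axis, from 0) in each mouse (points) by group, from control at the left to PBMC-hCG at the right, with the mean and SD of 5 mice; Crabp2 has points only. All RU486-treated mice lie above all control mice for Cyp26a1, and the 5 PBMC-hCG mice lie below all others for Rdh10.

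Markers of uterine epithelium, glands, stroma, smooth muscle and endothelium were above 0 in all libraries, as the labelled tissue would have. The summed level of 5 adipose markers was 3.43 to 331 TPM in control mice, 2.88 to 65.7 TPM in IF, 2.80 to 23.3 TPM in PBMC and 2.49 to 10.8 TPM in PBMC-hCG mice, and Adipoq was above 3 TPM in control mouse 2 (42.1 TPM), IF mouse 5 (4.45 TPM) and PBMC mouse 4 (3.78 TPM). These 3 libraries stand apart, and results whose call depends on them are given with and without them. Control mouse 2 stood apart in other markers too, with 13969 TPM of the gland gene Prss29 (329 to 3408 TPM in the other control mice) and 665 TPM of the stromal gene Col1a1 (1718 to 2069 TPM). In bulk tissue, fewer cells of a type and less RNA per cell cannot be told apart.

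The first question was whether RU486 treatment altered the retinoid genes. Between IF and control mice, 4 of the 8 genes were called at an adjusted p under 0.05, all 4 higher, while 21.9% of the 18706 genes tested were called and 13.4% were called higher. The median log2 change was 0.57 for the 8 genes and 0.02 for all tested genes. The IF and control mice did not overlap for 2 of the 8, against 12.8% of all tested genes.

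Cyp26a1, the main uterine retinoic acid hydroxylase here by level, stood at 89.0, 97.6, 117, 110.4 and 173 TPM in the control mice. In the IF mice it stood at 271, 289, 213, 250.3 and 250.0 TPM. The lowest IF mouse was above the highest control mouse. On the log2(TPM + 0.1) scale, used for all changes below, Cyp26a1 rose by 1.15 (SE 0.13, 95% interval 0.87 to 1.43, limma adjusted p = 7.25e-06), a fold of 2.22.

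Cyp26b1, its low-level paralog, measured 1.68, 3.05, 0.497, 0.449 and 1.10 TPM in control mice. The IF mice had 3.27, 2.12, 7.64, 1.82 and 3.81 TPM of Cyp26b1. The groups overlapped, since control mouse 2 lay above IF mice 2 and 4. Cyp26b1 rose by 1.52 (SE 0.49, limma adjusted p = 0.0331), but the call was lost without control mouse 3, 4 or 5 or IF mouse 1, 3 or 5 (adjusted p of limma 0.0518 to 0.0962) and with a pseudocount of 1 (change of 1.0, adjusted p of limma 0.0623), with no filter (0.0557) or with only both groups fitted (0.0830).

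Aldh1a2, the enzyme known for retinoic acid synthesis in stroma, measured 104, 75.5, 114, 106 and 96.4 TPM in control mice. The IF mice had 130.1, 173, 119.7, 204 and 254 TPM. All IF mice were above all control mice, with the spread among IF mice (SD 55.1 TPM) above that among control mice (SD 14.6 TPM). Aldh1a2 rose by 0.79 (SE 0.20, limma adjusted p = 0.00763), a fold of 1.73, and Aldh1a2 kept its call without any single mouse of either group.

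Aldh1a3, an enzyme of the same step at a low level, had 0.529, 2.0, 0.648, 0.539 and 1.63 TPM in control mice. The IF mice had 2.73, 4.01, 8.42, 1.32 and 6.08 TPM of Aldh1a3. Only IF mouse 4 fell within the control range. Aldh1a3 rose by 1.93 (SE 0.43, limma adjusted p = 0.00362), a fold of 3.80.

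The genes upstream of these were not called in the IF group in the main fit, which held the 4 groups alone. With the replicate number added to that fit, Stra6 (limma adjusted p = 0.04995) and Dhrs3 (limma adjusted p = 0.0312) were called. Stra6, the retinol uptake receptor, had 45.7 to 73.6 TPM in control and 35.9 to 52.6 TPM in IF mice, with a change of -0.33 (limma adjusted p = 0.0662), and Stra6 fell by 0.42 without control mouse 2 (limma adjusted p = 0.0146) and by 0.47 without the 3 libraries with Adipoq (limma adjusted p = 0.00907). Stra6 also passed with quantile normalization (-0.39, limma adjusted p = 0.0222). Dhrs3 had 28.3 to 34.8 TPM in control and 32.2 to 46.3 TPM in IF mice, with a change of 0.35 (limma adjusted p = 0.0710), which passed without IF mouse 4 (0.43, limma adjusted p = 0.0317). Rdh10 had a change of 0.23 with a 95% interval of -0.21 to 0.66, and of 0.062 without IF mouse 5 and 0.040 without the libraries with Adipoq.

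Aldh1a1, an aldehyde dehydrogenase also found in other tissues, had 8.42, 33.5, 10.4, 9.84 and 11.9 TPM in control mice. The level of 33.5 TPM belonged to control mouse 2, the library with the most adipose marker RNA. The IF mice had 6.67 to 10.4 TPM of Aldh1a1, and the change of -0.61 (SE 0.27) was not called (limma adjusted p = 0.113). The change was -0.26 without control mouse 2 and -0.18 without the libraries with Adipoq. The part of the adipose, gland and stromal RNA of that mouse in its Aldh1a1 value was not tested.

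Other cell type markers moved with this comparison. All 5 endothelial markers rose in the IF group, with a summed level of 316 to 425 TPM in control and 473 to 510.3 TPM in IF mice. Of the stromal markers 3 of 7 rose, with sums of 5077 to 8997 and 8981 to 10624 TPM, and of the epithelial markers 4 of 7 rose and 1 fell, with sums of 702 to 1218 and 886 to 1226 TPM. Leukocyte markers rose for 3 of 6 tested, with sums of 167 to 185 and 194 to 261 TPM. Of the smooth muscle markers 1 of 6 fell, with sums of 5900 to 11100 and 5950 to 7431 TPM, of the gland markers 1 of 6 rose and 1 fell, with sums of 1261 to 23945 and 2666 to 12235 TPM, and of the oviduct markers 1 of 4 fell, with sums of 55.2 to 71.9 and 39.7 to 63.3 TPM. Their part in the retinoid changes was not tested.

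**Figure D2:**
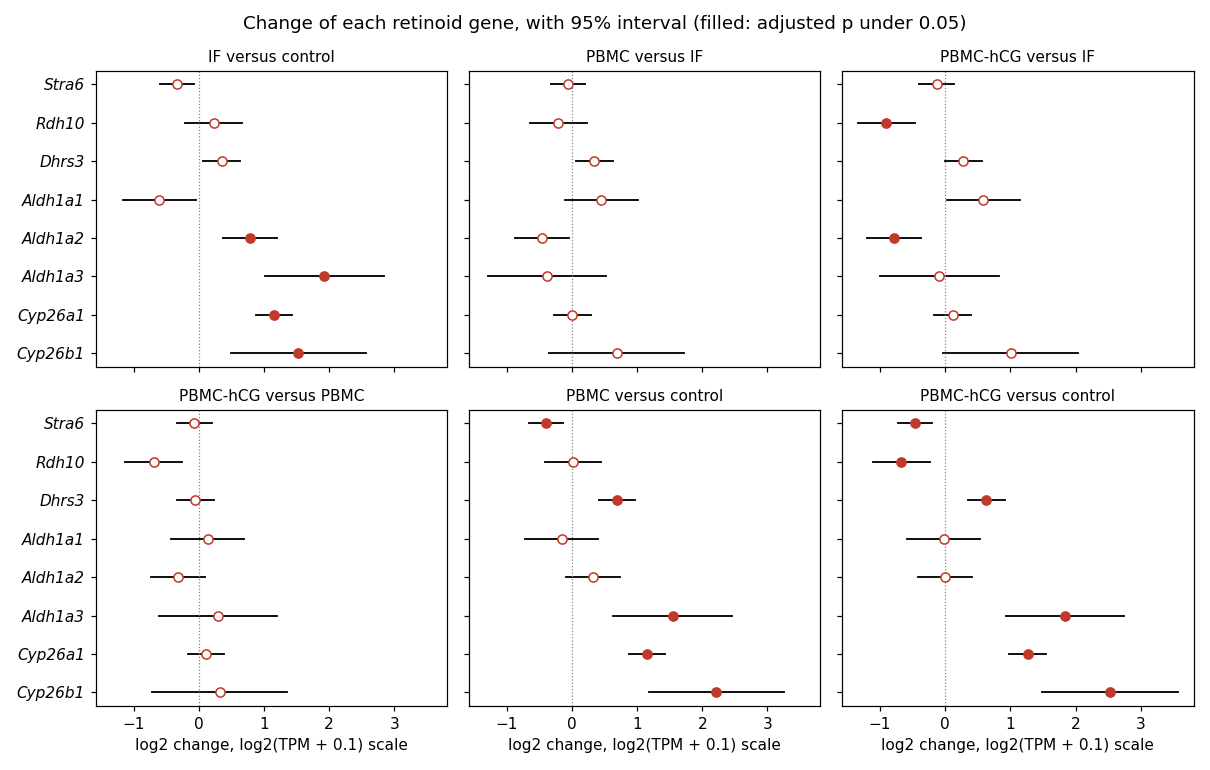
Change of 8 retinoid genes in the 6 comparisons (horizontal axis, log2 change on the log2(TPM + 0.1) scale), as the limma estimate with its 95% interval; filled points had an adjusted p under 0.05. Filled points number 4 for IF versus control, 0 for PBMC versus IF, 2 for PBMC-hCG versus IF, 0 for PBMC-hCG versus PBMC, 5 for PBMC versus control and 6 for PBMC-hCG versus control.

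The next question was whether the injected cells altered the retinoid genes in RU486-treated mice. Between the PBMC and IF groups 0 of 8 genes were called by limma, where 0% of all tested genes were called. At an unadjusted p under 0.05, 2 of the 8 genes passed, Aldh1a2 and Dhrs3, against 6.79% of all tested genes. The groups overlapped for all 8 genes, against 1.01% of all tested genes that did not overlap.

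Cyp26a1 had 219, 251, 271, 291 and 245 TPM in PBMC mice. Of these, 4 lay within the range of the IF mice and PBMC mouse 4 just above it, and the difference of 0.00 had a 95% interval of -0.28 to 0.28. Aldh1a2 had 109, 114, 111, 104 and 199.7 TPM in PBMC mice. Of these, 4 were below all IF mice and PBMC mouse 5 was within the IF range, and the change was -0.46 (95% interval -0.87 to -0.05, limma adjusted p = 0.721), or -0.25 without the libraries with Adipoq.

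PBMC mouse 5 was also the highest of its group for Rdh10. The levels were 42.6, 49.8, 75.5, 44.6 and 98.1 TPM in PBMC mice, with PBMC mouse 3 next to it, and the change from IF was -0.21 (95% interval -0.64 to 0.22). Dhrs3 had 62.3, 57.5, 53.1, 52.5 and 34.8 TPM in PBMC mice. The lowest value was that of PBMC mouse 5, and the change of 0.34 had a limma adjusted p of 0.701.

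Between the PBMC-hCG and IF groups 2 of 8 genes were called, Aldh1a2 and Rdh10, both lower, where 13.6% of all tested genes were called and 5.99% were called lower. The groups did not overlap for Rdh10 and Aldh1a1, against 7.24% of all tested genes. The median log2 change was 0.01 for the 8 genes and 0.05 for all tested genes.

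Rdh10, which supplies the retinaldehyde for retinoic acid synthesis, had 68.1, 71.0, 55.2, 50.5 and 108 TPM in IF mice. The PBMC-hCG mice had 41.5, 35.4, 35.3, 36.4 and 33.5 TPM. Every PBMC-hCG mouse was below every IF mouse and the values were the closest together of the 4 groups (SD 3.03 TPM). Rdh10 fell by 0.90 (SE 0.21, 95% interval -1.34 to -0.47, limma adjusted p = 0.0279), to 0.535 of the IF level.

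Aldh1a2 had 124, 99.1, 98.2, 84.7 and 89.8 TPM in PBMC-hCG mice. Only PBMC-hCG mouse 1, at 124 TPM, reached into the IF range. Aldh1a2 fell by 0.79 (SE 0.20, 95% interval -1.20 to -0.37, limma adjusted p = 0.0289), to 0.580 of the IF level.

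Both calls depended on single mice. Without IF mouse 2, 4 or 5 or PBMC-hCG mouse 2, 3, 4 or 5 neither was called, with limma adjusted p of 0.0569 to 0.10 for Aldh1a2 and 0.0535 to 0.0950 for Rdh10, and the changes ranged from -0.91 to -0.64 for Aldh1a2 and from -1.01 to -0.74 for Rdh10 over all 10 mice left out in turn. Without the 3 libraries with Adipoq, of which IF mouse 5 is in this comparison, Aldh1a2 had a change of -0.64 (limma adjusted p = 0.0637) and Rdh10 of -0.74 (limma adjusted p = 0.0601). The calls over all genes moved with them, from 2544 to 0 without IF mouse 5 and to 4 without the libraries with Adipoq.

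The breakdown genes were not called in this comparison. Cyp26a1 had 257, 299, 286, 242 and 290.5 TPM in PBMC-hCG mice and a change from IF of 0.11 (95% interval -0.17 to 0.39). Cyp26b1 had 4.93, 9.96, 8.81, 8.20 and 3.69 TPM in PBMC-hCG mice. These overlapped with IF mice 3 and 5, and the change of 1.01 (SE 0.49) had a limma adjusted p of 0.154.

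Aldh1a1 had 10.7, 16.9, 11.8, 12.8 and 11.7 TPM in PBMC-hCG mice, all above the IF mice. The change of 0.59 (SE 0.27) was not called over the 4 groups (limma adjusted p = 0.126), but was called with only both groups fitted (limma adjusted p = 0.0457). Dhrs3 had a change of 0.28 (limma adjusted p = 0.147), Aldh1a3 of -0.09 (95% interval -1.0 to 0.82) and Stra6 of -0.13 (95% interval -0.40 to 0.13).

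Mesothelial markers moved with this comparison, of which 3 of 5 rose, with a summed level of 165 to 233 TPM in IF and 245 to 327 TPM in PBMC-hCG mice. All 5 were above 0 in all libraries. Of these, Krt19 is also in the epithelial list, and had 48.5 to 88.0 TPM in IF and 98.6 to 143 TPM in PBMC-hCG mice. Upk3b had 23.3 to 33.1 and 39.9 to 50.5 TPM, whereas Wt1 had 73.6 to 97.2 and 73.8 to 96.6 TPM. In the same comparison 1 of 7 epithelial, 1 of 7 stromal and 1 of 5 endothelial markers rose. Smooth muscle markers, of which 0 of 6 were called, summed to 5950 to 7431 TPM in IF and 4806 to 6039 TPM in PBMC-hCG mice. Their part in the retinoid values was not tested.

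Between the PBMC-hCG and PBMC groups, which differ in the culture of the injected cells with hCG, 0 of 8 genes were called by limma and 0.0107% of all tested genes were. At an unadjusted p under 0.05 only Rdh10 passed of the 8, against 16.2% of all tested genes. All 5 PBMC-hCG mice were below all 5 PBMC mice for Rdh10, which held for 1 of the 8 genes, against 3.46% of all tested genes not overlapping in either direction. The Rdh10 difference was -0.69 (95% interval -1.13 to -0.26, limma adjusted p = 0.266), and without the libraries with Adipoq -0.79 (limma adjusted p = 0.0496).

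Compared with untreated mice, the PBMC group had 5 of 8 genes called, 4 higher and 1 lower, where 19.5% of all tested genes were called, 12.8% higher and 6.7% lower. The groups did not overlap for Cyp26a1 alone of the 8, against 12.7% of all tested genes. Cyp26a1 rose by 1.15 (SE 0.13, limma adjusted p = 9.05e-06), Cyp26b1 by 2.21 (SE 0.49, limma adjusted p = 0.00368) and Aldh1a3 by 1.55 (SE 0.43, limma adjusted p = 0.0167).

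The PBMC mice had 12.0, 5.19, 6.28, 4.64 and 2.33 TPM of Cyp26b1 and 1.65, 2.92, 3.48, 4.62 and 2.50 TPM of Aldh1a3. For each of these genes a single PBMC mouse lay within the control range. Dhrs3, the retinaldehyde reductase, rose by 0.69 over control (SE 0.14, limma adjusted p = 0.00133). The control mice had 34.8, 34.7, 32.7, 28.3 and 28.3 TPM of Dhrs3, and only PBMC mouse 5 was within that range.

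Stra6 had 73.6, 45.7, 56.4, 53.3 and 67.9 TPM in control mice and 45.5, 46.2, 47.6, 36.8 and 46.8 TPM in PBMC mice. Control mouse 2 was within the PBMC range. Stra6 fell by 0.40 (SE 0.13, limma adjusted p = 0.0317), a call that was lost without control mouse 1 or 5 or PBMC mouse 4 (limma adjusted p of 0.0828 to 0.0920), with no filter (0.0514) or with only both groups fitted (0.0664).

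The PBMC-hCG group had 6 of 8 genes called against control, 4 higher and 2 lower, where 31.8% of all tested genes were called, 20.2% higher and 11.6% lower. The groups did not overlap for 5 of the 8, against 18.3% of all tested genes. Cyp26a1 rose by 1.26 (fold 2.40, limma adjusted p = 2.98e-06), Cyp26b1 by 2.53 (fold 5.77, limma adjusted p = 0.000898), Aldh1a3 by 1.84 (fold 3.58, limma adjusted p = 0.00374) and Dhrs3 by 0.63 (fold 1.55, limma adjusted p = 0.00182). For all 4 of these genes every PBMC-hCG mouse was above every control mouse.

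The lower genes were those at the entry of the pathway. Rdh10 had 62.1, 54.6, 57.0, 67.5 and 50.3 TPM in control mice, all above the 33.5 to 41.5 TPM of the PBMC-hCG mice, and fell by 0.67 (SE 0.21, limma adjusted p = 0.0187). Stra6 had 50.8, 39.1, 43.5, 41.8 and 37.7 TPM in PBMC-hCG mice, of which mouse 1 lay within the control range, and fell by 0.47 (SE 0.13, limma adjusted p = 0.00886). Aldh1a2 had a difference of 0.00 with a 95% interval of -0.41 to 0.41, so a difference in either direction of that size was not resolved. Cell type markers moved with both comparisons with control. In the PBMC group endothelial markers rose for 5 of 5 (summed level of 479 to 545 TPM), stromal markers for 4 of 7 (9287 to 11285 TPM), mesothelial markers for 2 of 5 (236 to 317 TPM), gland markers for 1 of 6 and leukocyte markers for 1 of 6 tested, epithelial markers rose for 4 of 7 and fell for 1 (978 to 1227 TPM), and 1 of 4 oviduct markers fell. In the PBMC-hCG group endothelial markers rose for 5 of 5 (523 to 590.5 TPM), stromal markers for 4 of 7 (9601 to 11117 TPM), mesothelial markers for 3 of 5 and leukocyte markers for 4 of 6 tested (205 to 253 TPM). In that group epithelial markers rose for 5 of 7 and fell for 1 (1055 to 1421 TPM), gland markers rose for 1 and fell for 1 of 6 (3813 to 10208 TPM), smooth muscle markers fell for 5 of 6 and 1 of 4 oviduct markers fell. Their part in the retinoid values was not tested.

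Crabp2, the carrier of retinoic acid to the nucleus, was the least abundant of the 9 genes. It was listed at 0 in control mice 1 and 4, with 0.461, 0.417 and 0.587 TPM in the others, and at 0.603, 0.393, 0.365, 0.442 and 0.385 TPM in the IF mice. It was listed at 0 in PBMC mice 1, 3 and 4 and PBMC-hCG mice 2 and 5, and at 0.183 to 0.528 TPM in the other mice of these groups. The IF group was the only group with Crabp2 above 0 in every mouse, the ranges overlapped in every comparison, and no fold is given.

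Pairs of these genes differed in how they varied among mice. Over the 20 mice, Pearson's r of log2(TPM + 0.1) was 0.89 between Cyp26b1 and Dhrs3 and 0.74 after each group's mean was removed. For Aldh1a2 and Rdh10 these values were 0.68 and 0.65, and IF mouse 5 and PBMC mouse 5 were the highest of their groups for both genes. These pairs are those with the highest r within groups among the tested genes. The lowest r within groups were those of Aldh1a1 with Stra6 (-0.33 over the 20 mice and -0.66 within groups) and of Aldh1a2 with Dhrs3 (-0.20 and -0.65). Cyp26a1 and Cyp26b1, paralogs that both rose with RU486, had an r of 0.62 over all mice but -0.36 within groups. These correlations are descriptions over points that share libraries and groups.

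**Figure D3:**
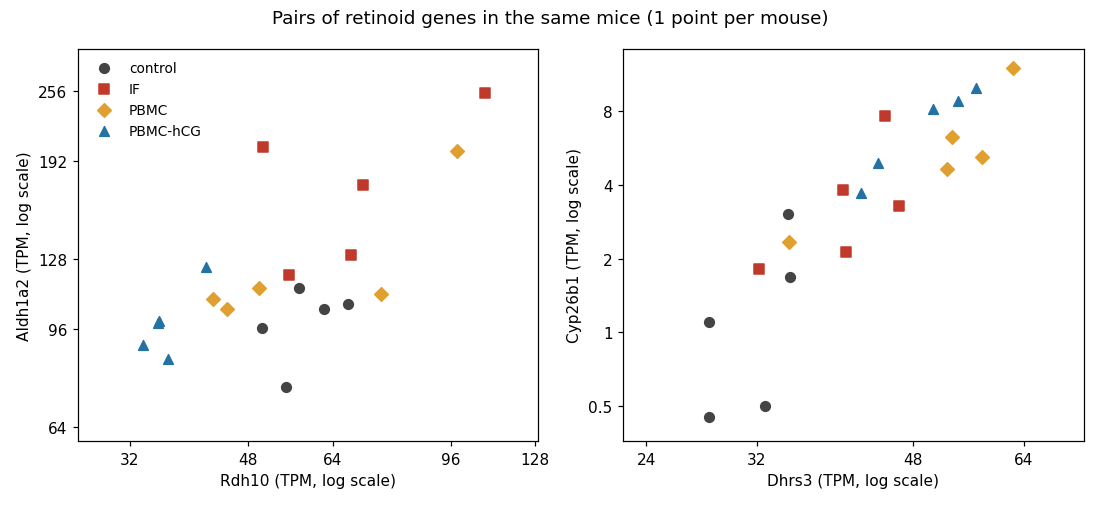
TPM of Aldh1a2 against Rdh10 (left) and of Cyp26b1 against Dhrs3 (right), 1 point per mouse, both axes logarithmic. PBMC mouse 5 lies among the IF mice at 98.1 TPM of Rdh10 and 199.7 TPM of Aldh1a2, and Cyp26b1 was higher where Dhrs3 was higher (r = 0.89 over 20 mice).

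Within a mouse, the ratio of the TPM of Cyp26a1 to that of Aldh1a2, chosen after the values were seen, had a median of 1.04 in control, 1.66 in IF, 2.21 in PBMC and 2.92 in PBMC-hCG mice. It ranged from 0.857 to 1.79 in control and from 2.08 to 3.24 in PBMC-hCG mice, which did not overlap. Cyp26a1 alone already placed all PBMC-hCG mice above all control mice, so this lack of overlap is not a separate result. The ratio of Dhrs3 to Rdh10, the opposed reductase and oxidase of retinaldehyde, was also chosen after the values were seen. It had medians of 0.562, 0.637, 1.15 and 1.39 in the same order. Rdh10 alone already placed all PBMC-hCG mice below all control and IF mice, so their separation by this ratio is not a separate result. All PBMC-hCG mice (1.06 to 1.60) were above all control (0.419 to 0.636) and IF mice (0.372 to 0.809), and PBMC mouse 5, at 0.355, was below them all. These are ratios of transcript levels and not of enzyme activity.

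The genes with the most similar patterns over the 20 mice were, for Cyp26a1, Prpf18 (r = 0.93), Spsb2 (0.93) and Crocc2 (0.93). For Aldh1a2 they were Gm9762 (r = 0.96), Wsb2 (0.94) and Ube2d2a (0.94), and for Rdh10 Trib1 (0.91), Pvr (0.90) and Eif1a (0.90). For Cyp26b1 they were Il10rb (r = 0.94), Ncoa3 (0.92) and Mier1 (0.92), and for Dhrs3 Rem1 (0.92), Pam (0.91) and Grap (0.91). For Aldh1a3 they were Elovl3 (r = 0.92), Fam20a (0.92) and Susd4 (0.91), for Stra6 Peg12 (0.93), Alg14 (0.92) and Ndufa12 (0.91), and for Aldh1a1 Acss1 (0.85), Abcb1b (0.85) and Ldhb (0.84). With group means removed, r stayed at 0.93 for Wsb2 with Aldh1a2 and at 0.92 for Trib1 with Rdh10, and was 0.53 for Prpf18 with Cyp26a1.

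The nuclear receptors of retinoic acid were measured alongside. Of 6 receptor genes, all tested, Rara and Rarg rose in the IF group and 0 fell, where 21.9% of all tested genes were called and 13.4% higher. Rara had 23.1 to 28.0 TPM in control and 32.4 to 39.7 TPM in IF mice, without overlap, and rose by 0.48 (limma adjusted p = 8.67e-05). Rarg rose by 0.41 (limma adjusted p = 0.0350), a call lost in 10 of 19 settings (limma adjusted p up to 0.105), among them no filter, quantile normalization, only both groups fitted, and leaving out control mouse 1, 3, 4 or 5 or IF mouse 1, 3 or 4. Rara also rose over control in the PBMC (0.47) and PBMC-hCG (0.36) groups.

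Rarg, with 36.6 to 58.0 TPM in control and 65.5 to 78.2 TPM in PBMC-hCG mice, rose by 0.71 over control in the PBMC-hCG group (limma adjusted p = 0.000633) and by 0.55 in the PBMC group (limma adjusted p = 0.00700). Rxra, the partner of these receptors, rose by 0.21 in PBMC-hCG over IF mice (limma adjusted p = 0.0287), from 34.3 to 41.1 TPM in IF to 42.8 to 45.9 TPM in PBMC-hCG mice. That was the only receptor called between these groups, 16.7% of the 6 against 13.6% of all tested genes. Between PBMC and IF mice 0 of 6 were called, against 0% of all tested genes. Between PBMC-hCG and PBMC mice 0 of 6 were called, against 0.0107%. Against control, Rara, Rarg and Rxra were called higher in both the PBMC and PBMC-hCG groups, 50% of the 6. Of all tested genes 12.8% were called higher in the PBMC group and 20.2% in the PBMC-hCG group.

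Of 33 other genes of retinoid handling 25 were tested, and 3 rose and 3 fell in the IF group, 24% against 21.9% of all tested genes. Adh5, an alcohol dehydrogenase, fell by 0.40 (limma adjusted p = 0.000220), from 103 to 128 TPM in control to 79.3 to 96.0 TPM in IF mice. Retsat, the retinol saturase, fell by 0.73 (limma adjusted p = 0.00118), from 16.2 to 18.2 TPM to 7.08 to 13.1 TPM. Rdh11, a retinaldehyde reductase, rose by 0.55 (limma adjusted p = 0.00114). The groups did not overlap for any of these 3 genes, against 12.8% of all tested genes. These 3 were picked as those with the smallest adjusted p of the 25, so their lack of overlap is not a separate result.

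Between PBMC-hCG and IF mice 1 of the 25 rose and 4 fell, where 13.6% of all tested genes were called and 5.99% lower. Dhrs9, a retinol dehydrogenase, fell by 1.27 (limma adjusted p = 0.0201), from 2.51 to 3.78 TPM in IF to 0.820 to 1.48 TPM in PBMC-hCG mice. Retsat rose by 0.58 (limma adjusted p = 0.0287) to 13.4 to 17.8 TPM. Dgat1, an acyltransferase that can esterify retinol, fell by 0.35 (limma adjusted p = 0.0319). The others that fell were Lrat, which makes retinyl esters for storage, and Rdh11, named after their values were seen. Without the libraries with Adipoq 0 of the 25, 0 of the 6 receptors and 0 of the response genes were called in this comparison. Against control, 2 rose and 2 fell in the PBMC group, 16% against 19.5% of all tested genes, and 1 rose and 5 fell in the PBMC-hCG group, 24% against 31.8%.

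Genes known to respond to retinoic acid numbered 11, of which 7 were tested. In the IF group 2 rose, Rarres1 and Tgm2, which were named after their values were seen, and 0 fell, where 21.9% of all tested genes were called and 13.4% higher, while 0 were called without the libraries with Adipoq. Between PBMC-hCG and IF mice Rarres2 rose and Tgm2 and Lrat fell, 42.9% of the 7, where 13.6% of all tested genes were called and 5.99% lower. Here too 0 were called without the libraries with Adipoq. Rarb, a receptor gene that is itself a classical target, was called in neither comparison. The median change of the 7 genes was 0.02 in the IF group, as for all tested genes (0.02), and 5 of the 7 were not called.

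**Figure D4:**
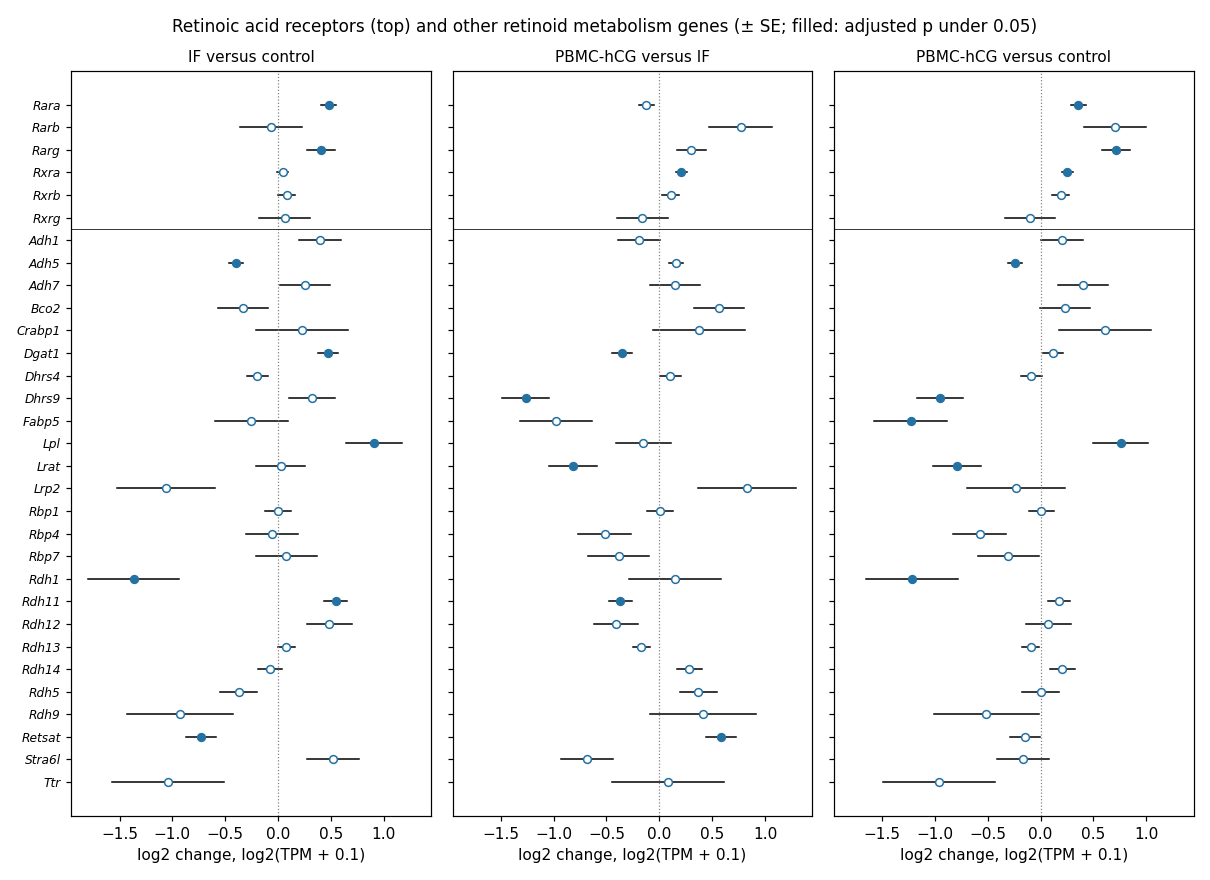
Change (horizontal axis, log2 change on the log2(TPM + 0.1) scale, with SE) of 6 retinoic acid receptor genes above the line and 25 other retinoid metabolism genes below it; filled points had an adjusted p under 0.05. Rara rose by 0.48 and Retsat fell by 0.73 in the IF group, and Dhrs9 fell by 1.27 in PBMC-hCG versus IF mice.

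By position on GRCm38.p6, the 9 protein-coding genes lie on 7 chromosomes. Cyp26a1 spans 37697738 to 37701536 and Aldh1a1 20492583 to 20643463 of chromosome 19, and Stra6 spans 58063793 to 58154004 and Aldh1a2 71215789 to 71296243 of chromosome 9. Rdh10 lies on chromosome 1 (16105882 to 16132550), Crabp2 on chromosome 3 (87948693 to 87953372), Dhrs3 on chromosome 4 (144892534 to 144928209), Cyp26b1 on chromosome 6 (84571414 to 84593908) and Aldh1a3 on chromosome 7 (66390892 to 66427477). The deposited values are given per gene, so that exons and isoforms were not resolved here.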

How the data were processed

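Uterine RNA of 20 mice was sequenced with stranded polyadenylated libraries. The authors deposited 1 table of TPM per gene, made by trimming with Trimmomatic, mapping to mm10 with HISAT2 and assembly with StringTie, whose versions were not given in the sources used here. Library totals lay between 999989 and 999999 TPM, with 22702 to 24097 genes above 0, so the depth behind the values cannot be read from them and counting error is left out. TPM is a share of each library, so a rise of abundant genes lowers the others.

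Groups and replicate numbers came from the sample labels. Testing used log2(TPM + 0.1) and the 18706 genes that no library lists at 0. A single limma 3.58.1 fit (R 4.3.3, trended prior variance) held the 4 groups, and the Benjamini-Hochberg adjustment ran over all of these genes in each of 6 comparisons. The authors used a count test, which TPM does not allow. On simulated data for IF versus control with 18706 genes, 190 of 200 genes changed by 2 on the log2 scale were recovered, with 11 false calls. Most changes reported are smaller than that. Figures were drawn with matplotlib 3.10.9 in Python 3.11.15.

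All 9 members were named, with at most 4 called genes of smallest adjusted p from the pathway lists per comparison at a mean of at least 1 TPM, and for each member with a mean of at least 1 TPM the 3 genes of highest r. The members and lists were chosen with earlier results of these data known. Each mouse is 1 library, and the p-values measure the spread between mice. Alternatives were other pseudocounts, filters, scalings and fits, each mouse left out in turn and, added after the data were seen, leaving out libraries with Adipoq above 3 TPM.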

Additional observations from a re-analysis of the deposited data

Results flagged for a closer look

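In groups of 5 mice, the gap of the highest or lowest mouse to its nearest neighbour, divided by the range of the group, was compared with Dixon's critical value of 0.71 for the 8 tested genes in 4 groups. Of these 32 groups 3 were past it, and chance alone gives about 1 in 20. Aldh1a1 in control mouse 2, at 33.5 TPM against 8.42 to 11.9 TPM in the other control mice, had a value of 0.753, in the library with 42.1 TPM of Adipoq. Aldh1a2 in PBMC mouse 5, at 199.7 TPM against 104 to 114 TPM, had a value of 0.866, and the same mouse had the highest Rdh10 (98.1 TPM) and the lowest Dhrs3 (34.8 TPM) and Cyp26b1 (2.33 TPM) of its group. Stra6 in PBMC mouse 4, at 36.8 TPM against 45.5 to 47.6 TPM, had a value of 0.825, and this library had 3.78 TPM of Adipoq.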

How the results depend on the processing

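The count of retinoid genes for PBMC-hCG versus IF moved from 2 to 0 in 9 of 20 settings, 7 of them with a single mouse left out. Under the study's rule of a fold of at least 2 with a raw p under 0.05, the 8 tested retinoid genes gave 0 calls for PBMC-hCG versus IF, 3 for PBMC versus control and 3 for PBMC-hCG versus control, and all genes gave 754 for IF versus control, 82 for PBMC versus IF, 432 for PBMC-hCG versus IF, 167 for PBMC-hCG versus PBMC, 625 for PBMC versus control and 887 for PBMC-hCG versus control. Under that rule the other retinoid metabolism genes gave 2 (IF versus control), 1 (PBMC-hCG versus IF), 1 (PBMC-hCG versus PBMC), 1 (PBMC versus control) and 2 (PBMC-hCG versus control), the receptors 0 in these comparisons, and the response genes 0 for IF versus control, 0 for PBMC-hCG versus IF and 1 for PBMC-hCG versus control. Without the libraries with Adipoq above 3 TPM, PBMC-hCG versus IF gave 0 retinoid genes, 4 of all genes and 0 in each pathway list, PBMC-hCG versus PBMC gave 1 retinoid gene and 265 of all genes, and IF versus control gave 11 other metabolism genes and 0 response genes. The cause was not tested, and fewer mice entered those fits.

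With only both groups fitted, IF versus control gave 2459 of all genes, 1 receptor and 0 response genes, and PBMC versus control 0 response genes. With no filter, PBMC versus IF gave 1 of all genes, PBMC-hCG versus IF 812 of all genes, 2 metabolism genes and 0 response genes, and IF versus control 1 receptor and 1 response gene. Quantile normalization gave 1 receptor and 1 response gene and median-of-ratios scaling 1 response gene for IF versus control, and PBMC-hCG versus PBMC had 1 of all genes with a pseudocount of 1 and 1 with a mean of at least 1 TPM. Median-of-ratios scaling moved the share of calls that were higher from 61.1% to 50.5% for IF versus control, from 55.9% to 44.6% for PBMC-hCG versus IF, from 65.7% to 52.5% for PBMC versus control and from 63.5% to 48.5% for PBMC-hCG versus control.

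With the replicate block, IF versus control gave 1 response gene and 6 retinoid genes, since Dhrs3 (limma adjusted p = 0.0312) and Stra6 (limma adjusted p = 0.04995) passed, and PBMC-hCG versus IF 3215 of all genes. The replicate numbers were not taken as pairs, as the labels name no shared batch and 8 of 30 pairs of same-numbered mice had a correlation of deviations over 0.1 (-0.25 to 0.46), with 2 of 20 mice correlating best with their own number. The largest correlations were among mice numbered 5, at 0.46 for IF with PBMC, 0.40 for control with IF and 0.27 for control with PBMC. Those of PBMC-hCG mouse 5 with these mice were -0.090 to -0.059. What control, IF and PBMC mouse 5 may share was not tested.

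With 1 mouse left out, the counts of retinoid genes ranged from 3 to 5 for IF versus control, 0 to 2 for PBMC-hCG versus IF, 4 to 5 for PBMC versus control and 6 to 6 for PBMC-hCG versus control. Counts over all genes ranged from 0 to 2 for PBMC versus IF, 0 to 5062 for PBMC-hCG versus IF (0 without IF mouse 5) and 2 to 7 for PBMC-hCG versus PBMC. Against control, counts over all genes ranged from 3331 to 5020 for IF, 2960 to 4636 for PBMC and 4758 to 7531 for PBMC-hCG. Metabolism genes ranged from 4 to 10 for IF versus control and 0 to 9 for PBMC-hCG versus IF, receptors from 1 to 2 and 0 to 2, and response genes from 1 to 2 and 0 to 3, with 1 to 2 for PBMC versus control.

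No called change turned its direction in the settings run. Values near 0 that did were Cyp26a1 in PBMC versus IF, -0.015 with median-of-ratios scaling, -0.049 without the Adipoq libraries and -0.058 to 0.057 with 1 mouse left out. Rdh10 and Stra6 in PBMC versus IF came to 0.056 and 0.046 without the Adipoq libraries. With 1 mouse left out, Stra6 in PBMC versus IF ranged from -0.16 to 0.0016. Aldh1a3 in PBMC-hCG versus IF was 0.079 without the Adipoq libraries and -0.45 to 0.19 with 1 mouse left out, and Dhrs3 in PBMC-hCG versus PBMC -0.20 to 0.013. Against control, Aldh1a1 was 0.14 (PBMC) and 0.32 (PBMC-hCG) without the Adipoq libraries and -0.31 to 0.19 and -0.17 to 0.32 with 1 mouse left out. Rdh10 in PBMC versus control was -0.032 with median-of-ratios scaling, -0.039 with quantile normalization and -0.17 to 0.13 with 1 mouse left out. Aldh1a2 in PBMC-hCG versus control was -0.076 with median-of-ratios scaling, -0.094 without the Adipoq libraries and -0.094 to 0.055 with 1 mouse left out.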
